A study of Mus musculus with 6 samples.

Results

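The Sprouty and SPRED genes encode inhibitors of RAS signalling, and 6 of them were followed by symbol: Spry1, Spry2, Spry4, Spred1, Spred2 and Spred3. Levels, shares and ranks given below for the family refer to these 6 genes only. They are 6 of the 55385 genes counted in 6 libraries of mouse primary cortical neurons, and all 6 were among the 18132 genes that passed a filter on low counts. The neurons came from cortices of embryonic day 18 embryos and were kept for 16 days in vitro, and all cultures, controls included, had received 2.5 uM AraC from day 2 for 24 hours, an agent that stops dividing cells. Untreated cells gave the 3 libraries labelled control. For the 3 libraries labelled activated, cells were exposed to KCl for 5 minutes, rinsed in medium and left for 30 minutes before harvest. One field of the labels gives the KCl concentration as 50 mM and another as 50 uM. Total RNA depleted of ribosomal RNA was sequenced with strand information. The labels do not say whether the replicates were separate cultures or litters, and p-values therefore reflect the spread among these samples alone, which may be technical.

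Receptor tyrosine kinases activate RAS through adaptors such as GRB2 and exchange factors such as SOS, and RAS passes the signal to the RAF, MEK and ERK kinases. Sprouty and SPRED proteins share a cysteine-rich C-terminal domain and act as brakes on this route. Sprouty proteins are phosphorylated on a tyrosine when receptors fire and then engage proteins such as CBL and GRB2, and several Sprouty genes are themselves switched on by ERK. SPRED proteins carry an EVH1 domain that binds neurofibromin, the RAS GTPase-activating protein encoded by Nf1, and bring it to the membrane. In neurons the pathway serves neurotrophin and FGF signalling, axon growth and the transcriptional response to calcium entry.

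Between 17752711 and 32919975 reads per library were assigned to genes, and activated replicate 1 was the shallowest. Known activity-induced genes moved opposite to the labels. Arc, for example, had 176 ± 11.8 CPM (reads scaled to a common library size, SD, n = 3) with the label control and 48.9 ± 2.92 CPM with the label activated. Every direction below is therefore that of the labels as deposited. Mitochondrially encoded genes took 14.7% to 17.1% of gene reads in the labelled control and 21.3% to 25.0% in the labelled activated libraries. Of all tested genes, 20.6% were called lower and 16.2% higher under the label activated (adjusted p below 0.05 in edgeR's quasi-likelihood test), 36.8% in all, with a median log2 fold change of 0.04. Lower genes made up 55.9% of calls with the TMM scaling used throughout, 68.7% with total counts only, 33.7% with libraries scaled to summed neuron marker counts and 6.18% with neuron markers weighted alike. The last 2 scalings moved the median of all genes by 0.10 and 0.32 on the log2 scale.

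Spry2, Spred1 and Spred2 were lower in the libraries labelled activated, at 74.7%, 77.9% and 74.7% of their labelled control means in that order. Spry1, Spry4 and Spred3 were not called and stood at 106%, 108% and 106% of theirs. The division ran across both branches of the family, with 1 Sprouty and 2 SPRED genes lower. The upstream DNA is shown for the 3 genes called lower, a choice made from their calls. Each line runs 5′ to 3′ on the gene's own strand and ends just before the first annotated transcribed base. Capitals mark matches to an ETS core (CGGAAG) or a GC box (GGGCGG) on either strand. The stretches are from RefSeq on GRCm38.p6, at chr14:105896820-105897069 on the minus strand for Spry2, chr2:117120821-117121070 on the plus strand for Spred1 and chr11:19924192-19924374 on the plus strand for Spred2.
Spry2: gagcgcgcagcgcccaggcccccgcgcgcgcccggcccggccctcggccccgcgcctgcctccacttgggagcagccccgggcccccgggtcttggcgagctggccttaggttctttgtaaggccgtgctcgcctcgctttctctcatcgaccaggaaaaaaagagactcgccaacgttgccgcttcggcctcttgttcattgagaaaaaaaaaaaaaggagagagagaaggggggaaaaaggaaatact
Spred1: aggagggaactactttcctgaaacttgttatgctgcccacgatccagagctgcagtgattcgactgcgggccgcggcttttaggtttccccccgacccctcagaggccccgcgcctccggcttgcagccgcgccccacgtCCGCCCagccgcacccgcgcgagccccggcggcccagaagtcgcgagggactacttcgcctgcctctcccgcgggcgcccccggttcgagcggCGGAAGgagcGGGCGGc
Spred2: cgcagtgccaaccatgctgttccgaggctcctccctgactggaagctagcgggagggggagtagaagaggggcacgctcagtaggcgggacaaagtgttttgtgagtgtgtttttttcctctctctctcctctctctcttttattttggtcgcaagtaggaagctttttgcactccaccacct

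Promoter windows were searched for 5 members, and Spry4 was left out of the search. In the 250 bases before the RefSeq start, Spred1 held 31 CpG pairs and Spry1 and Spry2 held 23 each, against 12 for Spred2, 6 for Spred3 and a median of 6 over 32851 windows of that length. None of the 5 windows held a cyclic AMP response element (TGACGTCA, present in 1.55% of all windows on either strand), an AP-1 site (TGANTCA, 6.75%), an EGR site (GCGNGGGCG, 4.70%) or a serum response element (1.47%). The ETS core was found in the windows of Spred1 and Spred2 and in 13.6% of all windows. The GC box was found in the windows of Spred1, Spred2, Spred3 and Spry1 and in 32.7% of all windows, and in Spred2 it overlapped the ETS core beyond the stretch shown. The ETS core and the GC box each contain a CpG pair. Member windows had from 55.6% (Spred3) to 70.8% (Spred1) G and C bases, against a median of 52.4%. The shares over all windows were not matched for this composition.

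Per kilobase of merged exon sequence, Spry2 had the highest level of the family and Spry1 the lowest. The levels in labelled control libraries were 25.1 ± 0.0704 CPM per kb for Spry2, 17.7 ± 1.16 for Spred1, 16.9 ± 0.911 for Spred2, 7.59 ± 0.723 for Spred3, 5.52 ± 0.613 for Spry4 and 2.88 ± 0.114 for Spry1 (SD, n = 3). Labelled activated libraries kept this order, at 18.8 ± 2.24, 13.8 ± 0.735, 12.6 ± 0.840, 8.07 ± 0.144, 5.97 ± 0.691 and 3.04 ± 0.0627 CPM per kb. Spred1 and Spred2 were the neighbours whose libraries overlapped in each group, and the remaining neighbours did not overlap. The Sprouty genes together took 44.3% ± 0.700 of the family's level per kb under the label control and 44.5% ± 1.62 under the label activated.

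**Figure D1:**
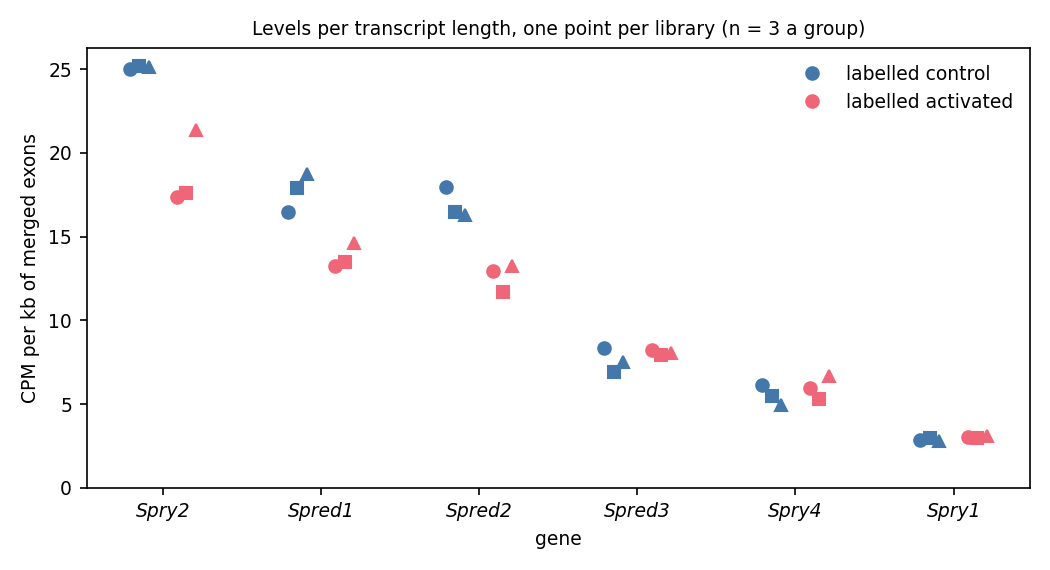
Level of each member in CPM per kb of merged exons (vertical axis) in every library, with labelled control in blue and labelled activated in red. Circles, squares and triangles are replicates 1, 2 and 3. Spry2 is highest and Spry1 lowest in every library, and the 3 genes at the left are those that were lower in the libraries labelled activated.

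Spry2 (ENSMUSG00000022114.5, chromosome 14, 105891947 to 105896819, minus strand, GRCm38) encodes the Sprouty protein best known for binding CBL downstream of FGF and EGF receptors. It stood at 52.2, 52.5 and 52.5 CPM in labelled control replicates 1, 2 and 3 and at 36.2, 36.7 and 44.5 CPM in labelled activated replicates 1, 2 and 3. The control libraries were nearly equal, all 3 labelled activated libraries lay below them, and activated replicate 3 was the nearest to them. Its log2 fold change of −0.42 ± 0.08 (SE) passed the test (edgeR adjusted p = 0.00112). In these bulk cultures, fewer cells of a type and less RNA per cell cannot be told apart.

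Spry1 (ENSMUSG00000037211.12, chromosome 3, 37639947 to 37644598, plus strand) encodes the Sprouty protein known from kidney development as an antagonist of the receptor RET. It was the least abundant member, with 147 to 288 reads per library. Its values were 8.30, 8.72 and 8.07 CPM in labelled control replicates 1, 2 and 3 and 8.75, 8.69 and 9.03 CPM in labelled activated replicates 1, 2 and 3. The groups overlapped by a narrow margin, and the log2 fold change of 0.08 ± 0.10 (SE) did not pass (edgeR adjusted p = 0.566). Leaving out control replicate 2 gave 0.12, with no call. The unconfirmed gene model Gm42922 shares 710 bp of exon sequence with Spry1 on the opposite strand, and same-strand reads stayed between 0.412% and 3.92% of the reads of both strands at Spry1.

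Spry4 (ENSMUSG00000024427.7, chromosome 18, 38586247 to 38601415, minus strand) encodes a Sprouty protein that restrains RAF activation. Its values were 29.2, 26.2 and 23.4 CPM in labelled control replicates 1, 2 and 3 and 28.4, 25.1 and 31.7 CPM in labelled activated replicates 1, 2 and 3. The groups overlapped widely, and the log2 fold change was 0.12 ± 0.10 (SE; adjusted p = 0.377 in edgeR). Leaving out control replicate 1 gave 0.21, leaving out activated replicate 2 gave 0.20 and leaving out activated replicate 3 gave 0.02, with no call in any of these.

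Spred1 (ENSMUSG00000027351.14, chromosome 2, 117121374 to 117182279, plus strand) encodes the SPRED protein whose loss in people causes Legius syndrome, a condition resembling mild neurofibromatosis. It had the most reads of the family. Its values were 112, 121 and 127 CPM in labelled control replicates 1, 2 and 3 and 89.9, 91.5 and 99.2 CPM in labelled activated replicates 1, 2 and 3. The groups did not overlap, and the log2 fold change of −0.36 ± 0.07 (SE) passed the test (edgeR adjusted p = 0.00108).

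Spred2 (ENSMUSG00000045671.17, chromosome 11, 19924375 to 20024026, plus strand) encodes a widely expressed SPRED protein that blocks ERK activation. Its values were 83.0, 76.0 and 75.4 CPM in labelled control replicates 1, 2 and 3 and 59.8, 53.9 and 61.3 CPM in labelled activated replicates 1, 2 and 3. All labelled activated libraries lay below all labelled control libraries, with a log2 fold change of −0.42 ± 0.07 (SE). Its edgeR adjusted p of 0.00039 was the smallest of the family.

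Spred3 (ENSMUSG00000037239.8, chromosome 7, 29158829 to 29170411, minus strand) encodes the SPRED protein found mainly in brain. Its values were 51.9, 42.9 and 46.8 CPM in labelled control replicates 1, 2 and 3 and 51.1, 49.3 and 50.2 CPM in labelled activated replicates 1, 2 and 3. Control replicate 1 lay above all labelled activated libraries and the other two controls below them, so that the groups overlapped. The log2 fold change of 0.09 ± 0.07 (SE) did not pass (edgeR adjusted p = 0.365). Leaving out control replicate 1 gave 0.17 and leaving out control replicate 2 gave 0.039, with no call in either. Ggn shares 202 bp of exon sequence with Spred3 on the opposite strand, and same-strand reads were at most 0.690% of both strands there.

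**Figure D2:**
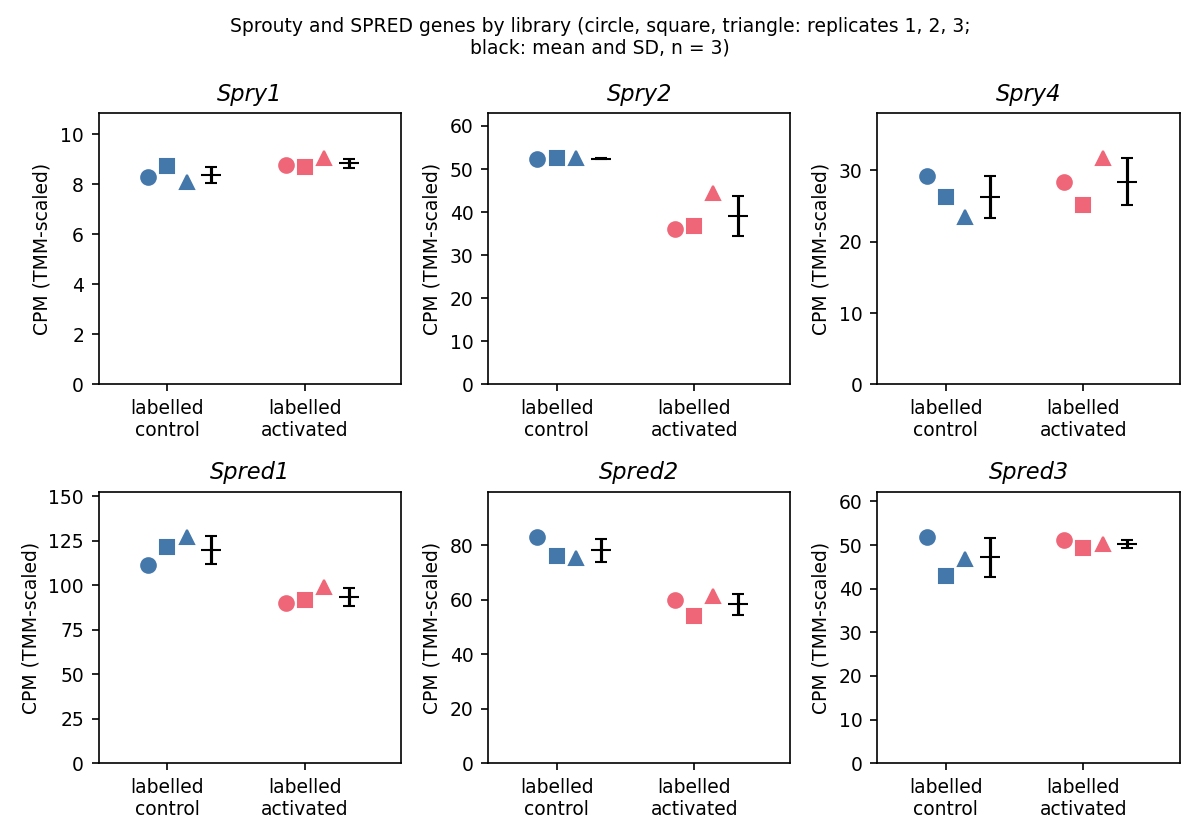
CPM of each member (vertical axis, scaled by TMM, from 0) in the 3 libraries labelled control (blue) and the 3 labelled activated (red), with the mean and SD of each group in black. Spry2, Spred1 and Spred2 show no overlap between groups, and Spry1, Spry4 and Spred3 overlap.

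With edgeR, 3 of the 6 members were called lower, beside 20.6% of all tested genes, and 0 were called higher, beside 16.2%. Likewise 0 were higher at an unadjusted p below 0.05 or with DESeq2. The groups did not overlap for the same 3 genes, beside 26.4% of all tested genes that lay lower without overlap and 49.0% without overlap in either direction. The members' median log2 fold change was −0.14, beside 0.04 over all tested genes.

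Ratios of reads between members within a library do not depend on how libraries are scaled. They were chosen after the values had been seen and were not tested. Spry2 had 1.79, 2.00 and 2.25 reads per Spry4 read in labelled control replicates 1, 2 and 3 and 1.27, 1.46 and 1.41 in labelled activated replicates 1, 2 and 3. Spred2 had 1.60, 1.77 and 1.61 reads per Spred3 read in the labelled control and 1.17, 1.09 and 1.22 in the labelled activated libraries. Neither ratio overlapped between the groups, and those of Spry2 to Spry1 and of Spred1 to Spred3 did not overlap either. Each of these ratios sets a gene called lower against one not called, so that the lack of overlap follows largely from the choice. Among the 3 lower genes the ratios overlapped, with 1.35 to 1.69 reads of Spred1 per Spred2 read in the labelled control and 1.502 to 1.696 in the labelled activated libraries.

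The calls themselves depended on the scaling. With neuron markers weighted alike, an alternative added after seeing the data, no lower call remained: Spry2 stood at −0.10 (edgeR adjusted p = 0.27), Spred1 at −0.04 (0.63) and Spred2 at −0.10 (0.193). There Spry1 (0.40, edgeR adjusted p = 0.00865), Spry4 (0.43, 0.00157) and Spred3 (0.41, 0.000413) were called higher, beside 50.0% of all tested genes called higher and a median of 0.36 over all genes. In the remaining alternatives, including each library left out in turn, Spry2 lay between −0.32 and −0.53, Spred1 between −0.26 and −0.43 and Spred2 between −0.32 and −0.49, each with a call.

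**Figure D3:**
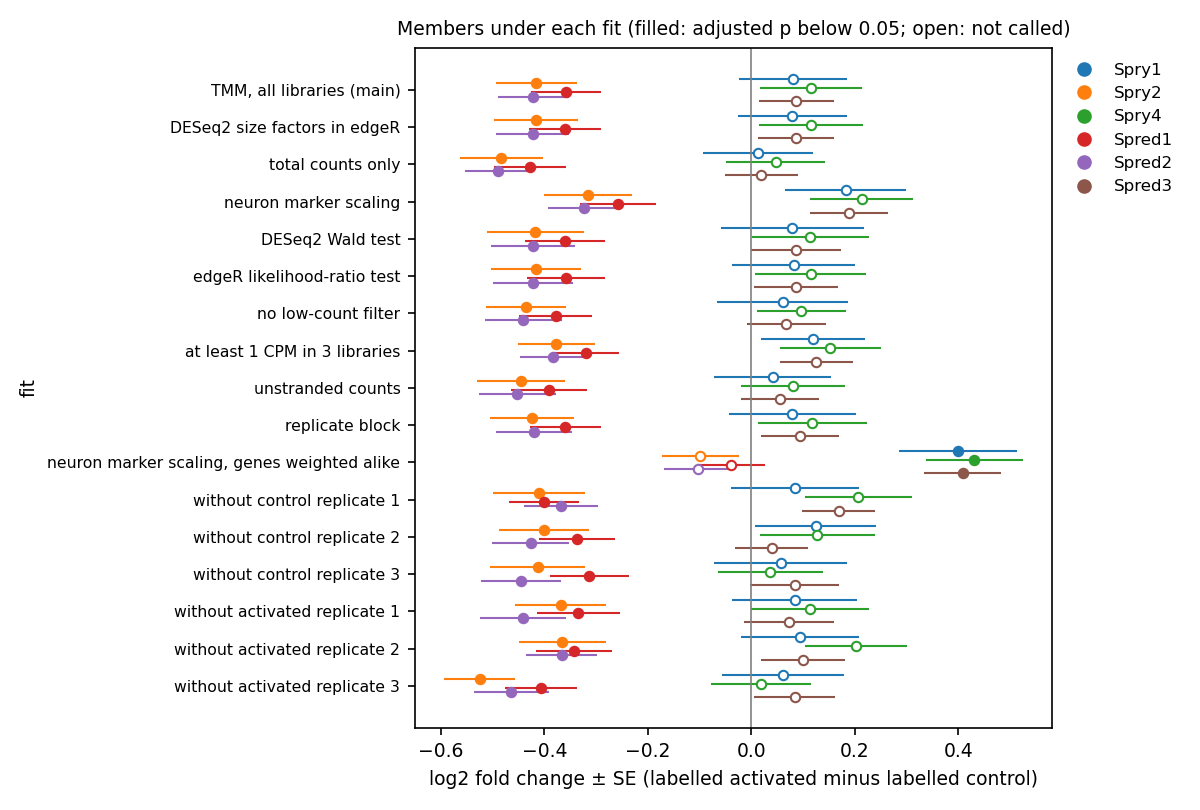
Log2 fold change with its SE (horizontal axis, labelled activated minus labelled control) of the 6 members under each fit (rows). Filled points passed an adjusted p of 0.05. The gap between Spry2, Spred1 and Spred2 on the left and Spry1, Spry4 and Spred3 on the right is present in every row. These sides match the calls of the main fit, and a change of scaling moves all members by nearly the same amount. The gap in the scaling rows therefore follows from the main fit. The row with neuron markers weighted alike moves all points to the right, where the calls change from the left to the right group.

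The summed level of 13 inhibitory neuron markers ranged from 2064 to 2147 CPM under the label control and from 1535 to 1726 CPM under the label activated, and 8 of the 13 were called lower. Of 13 excitatory neuron markers, 7 were called lower and 1 higher, and their sum went from between 2146 and 2247 CPM to between 2291 and 2481 CPM, led by Camk2a (1000 to 1282 CPM) and Slc17a7 (475 to 523 CPM). Without activated replicate 2, 2 excitatory and 1 inhibitory marker were called higher. Gad1, which encodes a GABA-synthesising enzyme, went from 628 to 359 CPM, whereas Reln, which encodes the secreted protein reelin, stood at 598 and 608 CPM. Of 12 astrocyte markers, 11 were called higher, and their sum went from between 1209 and 1254 CPM to between 1635 and 2038 CPM, with the most from Slc1a2 (488 to 620 CPM) and Apoe (238 to 386 CPM).
The sums of oligodendrocyte lineage markers (59.7 to 65.0 CPM against 78.4 to 90.1 CPM), led by Olig1 and Mbp, and of endothelial, mural and fibroblast markers (95.1 to 104 CPM against 135 to 176 CPM), led by Col1a1 and Acta2, did not overlap either. Of these, 4 of 7 and 6 of 8 tested markers were called higher. Microglia markers, among them C1qa, overlapped (47.3 to 64.3 CPM against 57.3 to 104 CPM), with 6 of 10 called higher, 3 of 10 without control replicate 1 and 1 of 10 without control replicate 3 or without activated replicate 3. Sox10, Mog, Mag, Cldn5, Cdh5, Tek and Lum had at most 7 reads in any library. The part of these cell types in the members' values was not tested.

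The other genes of the pathway came from 8 lists ordered by role, with 101 genes of which 100 were tested. Of these, 38 were called lower, 19 higher and 43 not (edgeR), a share of 57.0% called beside 36.8% of all tested genes, and their median log2 fold change was −0.09. The lists were chosen with earlier results of these data known, and the difference between these shares was not tested. The counts turned to 22 lower and 27 higher with summed neuron marker counts, beside 12.3% and 24.2% of all tested genes. With neuron markers weighted alike they were 10 lower and 48 higher, beside 3.29% and 50% of all tested genes. The recounts of single lists under these scalings stand beside the same shares.

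Among receptor tyrosine kinases, where the signal starts, 8 of 18 rose and 1 fell while 9 were not called, with a median of 0.33 that stayed positive under every scaling. The calls became 13 higher and 0 lower with summed neuron marker counts and 16 higher and 0 lower with neuron markers weighted alike. Fgfr1 and Fgfr2, receptors for FGF ligands, went from 64.5 ± 1.95 to 93.6 ± 6.41 CPM and from 31.9 ± 3.61 to 47.8 ± 2.85 CPM (SD, n = 3). Pdgfrb, the PDGF receptor of mural cells, went from 9.78 ± 1.39 to 17.1 ± 2.77 CPM. Fgfr3, Pdgfra and Pdgfrb of this list are also among the markers of non-neuronal cells above, which were higher in the same libraries, and their part was not tested.

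In the FGF list 4 of 12 genes fell and 1 rose while 7 were not called, around a median of −0.08 that turned to 0.03 and 0.24 with the summed and the equally weighted neuron markers. The lower and higher calls became 3 and 2 with the first of these and 1 and 4 with the second. Those with the smallest p were Fgf12 (−0.59) and Fgf13 (−0.46), whose products stay inside the cell and bind sodium channels, and the secreted Fgf9 (−0.33). The list thus mixes intracellular and secreted products, and its counts and median do not describe secreted ligands alone. The 1 rise was no longer called when control replicate 2, control replicate 3 or activated replicate 3 was left out.

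In the list of adaptors and of exchange factors, the latter of which load RAS with GTP, 7 of 16 genes were lower and 3 higher. These counts became 3 lower and 3 higher with summed neuron marker counts and 2 lower and 7 higher with neuron markers weighted alike. Rasgrp1, a calcium- and diacylglycerol-responsive exchange factor, went from 132 ± 3.67 to 91.3 ± 7.17 CPM, and Grb2, the adaptor that recruits SOS and binds Sprouty proteins, from 105 ± 2.31 to 74.8 ± 7.21 CPM. The adaptor gene Shc1 rose from 5.73 ± 0.596 to 9.53 ± 1.28 CPM. These 3 genes kept their direction and call under every scaling.

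Of 8 RAS family GTPase genes, 6 fell and 1 rose, and the median of −0.27 turned to 0.05 with neuron markers weighted alike. Hras fell (−0.41) and Rras rose (0.75). Without control replicate 2, without control replicate 3 or without activated replicate 2, 3 of the 8 were lower. With summed neuron marker counts 2 were lower and 1 higher, and with neuron markers weighted alike 1 and 2. RAF, MEK and ERK kinases and their scaffolds gave 9 of 12 lower and 3 not called, with a median of −0.25 that turned to 0.07 with neuron markers weighted alike, and 5 lower without control replicate 3. With summed neuron marker counts 4 of the 12 were lower and 0 higher, and with neuron markers weighted alike 1 was lower and 2 higher. The RAF inhibitor gene Pebp1 (−0.45) and the MEK gene Map2k1 (−0.52) fell.

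RAS GTPase-activating proteins, which switch RAS off, had 1 of 9 tested genes lower, 1 higher and 7 not called. These counts became 3 lower and 0 higher with total counts only, beside 25.2% and 11.5% of all tested genes under that scaling. They became 1 and 2 with summed neuron marker counts, and 0 and 7 with neuron markers weighted alike. Nf1, which encodes the partner through which SPRED proteins act, stood at 275 ± 3.92 CPM and 269.9 ± 11.96 CPM in the groups labelled control and activated, a log2 fold change of −0.03 ± 0.06 (SE; adjusted p = 0.76 in edgeR) that turned to 0.07 with summed neuron marker counts, with no call, and to 0.29 with neuron markers weighted alike, where it was called higher (adjusted p = 0.000708). Rasa2 rose by 0.21, which lost its call with total counts only (0.14), no low-count filter (0.19), unstranded counts (0.18), without control replicate 3 (0.20) or without activated replicate 1 (0.18). Rasal1 had a value of −0.21 with no call. It was called lower with total counts only (−0.28), with no low-count filter (−0.23), with unstranded counts (−0.24) and without control replicate 1 (−0.27), and stood at 0.11 with no call with neuron markers weighted alike.

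Genes listed as partners and regulators of Sprouty and SPRED proteins gave 6 of 11 lower, 1 higher and 4 not called. Their median of −0.19 turned to 0.13 with neuron markers weighted alike, where 2 were lower and 4 higher. Ppp2ca, the catalytic subunit of the phosphatase that acts on SPRY2, went from 315 ± 17.1 to 191 ± 16.1 CPM. Siah2, a ubiquitin ligase that targets SPRY2 for decay, went from 20.4 ± 0.834 to 11.8 ± 2.25 CPM, and both kept their direction and call under every scaling. Kbtbd7, a cullin adaptor gene, fell by 0.39. The 1 higher call was lost without control replicate 1 or activated replicate 3. Cbl, the ubiquitin ligase that SPRY2 binds, had a log2 fold change of −0.19 ± 0.06 (SE; adjusted p = 0.0188 in edgeR), which was no longer called when control replicate 2 (−0.15), control replicate 3 (−0.19) or activated replicate 1 (−0.19) was left out. The call was also lost with summed neuron marker counts (−0.092), and the value became 0.13 with no call with neuron markers weighted alike.

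Genes that ERK activity is known to induce, among which Sprouty genes are usually counted, moved in both directions: 4 of 14 fell and 4 rose while 6 were not called, around a median of −0.06 that turned to 0.04 and 0.26 with the summed and the equally weighted neuron markers. Dusp6, the ERK phosphatase gene, went from 121 ± 9.72 to 58.9 ± 4.28 CPM (log2 fold change −1.03) and Phlda1 from 34.5 ± 2.57 to 23.5 ± 1.15 CPM (−0.56). Ccnd1, which encodes cyclin D1, rose from 168 ± 13.03 to 273 ± 45.8 CPM (0.69). These 3 kept their direction and call under every scaling, and 7 of the 14 were lower without activated replicate 3.

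**Figure D4:**
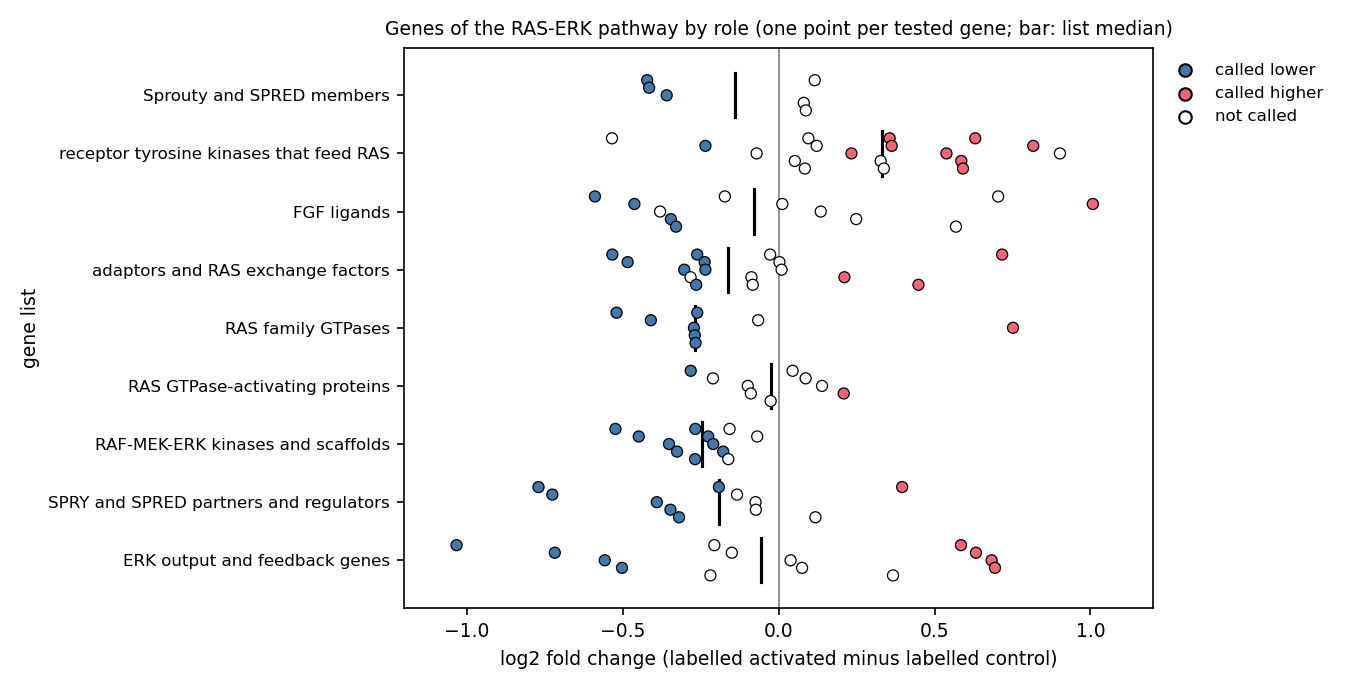
Log2 fold change (horizontal axis, labelled activated minus labelled control) of each tested gene of the family and of 8 pathway lists (rows). Blue points were called lower, red points higher and open points not called, and bars are list medians. Points of the receptor list lie mostly to the right of 0 and those of the GTPase and kinase lists mostly to the left, under the main scaling.

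Genes with the pattern most like each member were ranked by Pearson r of log2 CPM over the 6 libraries, which form 2 groups of 3, so that r holds both the group difference and the spread within groups. For Spry2 they were Rfk, which encodes riboflavin kinase (r = 0.998), and Ube2h, a ubiquitin-conjugating enzyme gene (0.997). For Spred1 they were Meaf6 and Gid8 (0.996 each), and for Spred2 Synrg (0.999) and Nsfl1c (0.998). The 6 genes had log2 fold changes between −0.41 and −0.22. For the other members they were Tmed4 and Slc16a3 with Spry1 (0.992 each), Fam3a and Gpr137 with Spry4 (0.984 each), and Dpm2 (0.991) and Gpr45 (0.982) with Spred3. Their log2 fold changes lay between 0.05 (Gpr137) and 0.67 (Slc16a3), the latter beside 0.08 for Spry1. Each r was among the 2 highest of all genes ranked, over only 6 libraries. High values therefore follow partly from the choice, and none was tested.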

How the data were processed

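Strand-specific libraries of total RNA depleted of ribosomal RNA were read as pairs of 150 bp, per the labels' protocols. The submitters' processing notes name STAR 2.5.2b, the build mm10 and edgeR. The authors deposited raw counts per gene with an unstranded column and 1 column per strand. The annotation release was not given in the sources used here. The reverse-strand column was used. The 4 lines naming no gene (42.3% to 50.7% of reads) were left out of library sizes and tests. Symbols, positions and merged exon lengths came from GENCODE mouse release M21 (GRCm38), which held 55144 of 55385 identifiers.

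Genes were filtered with filterByExpr (minimum count 10, total 15), scaled by TMM and tested by quasi-likelihood in edgeR 4.0.16 under R 4.3.3, with group as the only term, with Benjamini-Hochberg adjustment over all tested genes. SE was obtained by dividing the size of the log2 fold change by √F. Alternatives were DESeq2 1.42.0 size factors and Wald test, total counts, scaling to the summed counts of 26 neuron markers, the likelihood-ratio test, no filter, 1 CPM in 3 libraries, unstranded counts, a replicate block and each library left out. Scaling to the mean log count of the same markers was added after seeing the data. The procedure was also run on simulated counts with few changed genes in random directions. That run could not test how calls depend on the scaling. No 2 replicates agreed within sampling noise (chi-square per degree of freedom at least 4.82). The members and lists were chosen with earlier results of these data known. Of each pathway list, the 3 genes with the smallest p were named, with Nf1 and Cbl. Of each cell type list, the 2 most abundant genes were named, and for each member the 2 protein-coding genes (mean log2 CPM of at least 3, prior count 2) with the highest r. Arc and the cell type markers with few reads were named after their values were seen. Some genes that these rules name are not reported here.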

Additional observations from a re-analysis of the deposited data

How the results depend on the processing

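All 6 members kept the sign of their log2 fold change in all 16 alternatives, and their side of the threshold in 15. The exception was the scaling with neuron markers weighted alike, where Spry2 (−0.10), Spred1 (−0.039) and Spred2 (−0.10) lost their calls, Spry1 (0.40), Spry4 (0.43) and Spred3 (0.41) gained one, and 9061 genes were higher and 597 lower in all. Of the named pathway genes, Nf1 (0.29) turned positive and was called higher there, Rasal1 (0.11) and Cbl (0.13) turned positive with no call, and Hras, Pebp1, Fgf9, Fgf13 and Kbtbd7 kept their sign without a call. Scaling to summed neuron marker counts gave 2233 lower genes against 3733 and turned Nf1 to 0.072. Nf1 also turned to 0.013 with the filter of 1 CPM in 3 libraries, and with libraries left out it ranged from −0.062 without activated replicate 1 to 0.0028 without activated replicate 2. With each library left out in turn, lower calls over all genes ranged from 2846 to 3908 and higher calls from 1975 to 3304. With the replicate number as a block, Spry2, Spred1 and Spred2 were at −0.42, −0.36 and −0.42 and kept their calls, Cbl (−0.19) was not called, and 3105 genes were lower and 2173 higher. Same-numbered libraries did not deviate together (r = −0.01, −0.18 and −0.21 across genes), no sample correlated best with its own number, and the numbers were not taken as pairs. Depth limited Spry1 most, at 147 reads in its shallowest library.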
